A study of Mus musculus with 40 samples.

Results

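The 9 genes described here mark mature neutrophils, and they were read in RNA sequencing libraries of bone marrow hematopoietic stem cells (HSCs) and multipotent progenitors (MPPs). They are S100a8, S100a9, Camp, Ngp, Ltf, Lcn2, Retnlg, Mmp8 and Chil3, taken by symbol, and all 9 were found in each of the 6 tables, which list 16344 to 26640 genes. The genes were chosen with their levels in these libraries known, because single libraries stood apart in them. Their levels and the contrasts between genotypes are therefore given as description.

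Neutrophils mature in the bone marrow from granulocyte-monocyte progenitors, and they fill their granules in waves. Myeloperoxidase and the serine proteases of the primary granules come first, lactoferrin, cathelicidin and lipocalin of the specific granules come next, and gelatinase granule and secreted proteins of the late stages follow. The cytosol of mature neutrophils is packed with the calcium-binding pair S100A8 and S100A9, which together form calprotectin. These mRNAs are among the most abundant in bone marrow and are not counted among the genes of stem cells.

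The 40 libraries came from bone marrow of C57BL/6 mice in 12 groups, 6 of genotype HIRA KO and 6 WT. HIRA is a chaperone for the histone variant H3.3. In the KO mice both Hira alleles were floxed, and Mx1-Cre removes them in blood cells once it is induced by injected poly(I:C), which mimics viral RNA and raises interferon by itself. Whether the WT mice carried Mx1-Cre is not stated in the labels. In the first cohort 2 doses of 20 µg poly(I:C) were given, and 2500 cells were sorted 1 week after the first of them, in 4 KO and 4 WT libraries of HSCs and likewise of MPPs. Mice of the second cohort had Rosa26-M2rtTA and TetOP-H2B-GFP, in the KO mice besides Mx1-Cre and Hirafl/fl. Their chromatin was labelled by 6 weeks of doxycycline (2 mg/ml) in water sweetened with sucrose (10 mg/ml). The same 2 doses of poly(I:C) followed, and cells were sorted as GFP-high or GFP-low after a 17-day chase, 15 days after the last dose. That cohort has 3 KO and 3 WT libraries of each of HSC GFP-high, HSC GFP-low, MPP GFP-high and MPP GFP-low. Ages are not given in the labels used here.

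Depth was 18.25 to 32.48 M reads per library in the first cohort and 5.82 to 9.57 M reads in the H2B-GFP cohort, leaving out ribosomal RNA genes. Behind a member's value stood 1382 to 91633 reads for S100a8, 2 to 1164 for Mmp8 and 0 to 1921 for Retnlg. Hira did not separate the labels in any table, with 0.720 to 1.32 FPKM in KO HSCs and 0.840 to 1.64 FPKM in WT HSCs, and 1.58 to 2.06 FPKM in KO HSC GFP-high cells and 1.69 to 3.22 FPKM in their WT counterparts. These values cover the whole gene and cannot tell a deleted allele from an intact one, so KO and WT are used here as labels. All 15 markers of HSCs and MPPs were above 0 in every library. The tables were scaled separately, so levels are compared within a table and only set side by side across tables.

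The members share transcription factors of the granulocyte series in the textbook account, C/EBP proteins and PU.1. Stretches before the start of 4 members are shown for the letters they hold. In capitals is the C/EBP motif TTGCNNAA or its reverse TTNNGCAA in Ngp, Ltf and Mmp8, and the PU.1 motif GAGGAAG or its reverse CTTCCTC in S100a8. The sequences are RefSeq's, build GRCm38.p6, 5′ to 3′ on the plus strand, on which all 4 genes lie, at chr3:90668828-90668977, chr9:110419597-110419746, chr9:111019121-111019270 and chr9:7558279-7558428.
S100a8: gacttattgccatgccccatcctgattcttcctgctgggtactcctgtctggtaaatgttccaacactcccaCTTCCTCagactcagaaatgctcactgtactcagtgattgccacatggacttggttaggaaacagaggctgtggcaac
Ngp: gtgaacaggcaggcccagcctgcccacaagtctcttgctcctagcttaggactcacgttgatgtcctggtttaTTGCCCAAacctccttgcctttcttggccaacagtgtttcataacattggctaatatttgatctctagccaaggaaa
Ltf: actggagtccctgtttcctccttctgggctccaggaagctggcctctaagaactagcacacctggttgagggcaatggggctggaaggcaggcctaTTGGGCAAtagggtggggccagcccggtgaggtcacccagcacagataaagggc
Mmp8: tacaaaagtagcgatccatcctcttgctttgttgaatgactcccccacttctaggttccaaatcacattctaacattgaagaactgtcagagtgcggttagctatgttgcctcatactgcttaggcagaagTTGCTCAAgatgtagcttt
In the 250 bases before the start, 6 of the 9 members held the C/EBP motif on either strand (S100a9, Ngp, Ltf, Lcn2, Retnlg and Mmp8), against 9.56% of 32851 promoters. The PU.1 motif was held by 3 members (S100a8, Lcn2 and Mmp8), against 10.6% of promoters. A match describes the letters in this window and nothing more.

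Taken as a share of all FPKM (fragments per kilobase of gene, scaled to library size) in a library, the 9 genes made up 0.0535% to 0.113% in KO HSCs and 0.0284% to 0.296% in WT HSCs. They made up 0.0890% to 0.674% in KO MPPs and 0.215% to 0.627% in WT MPPs. In the H2B-GFP cohort the share was 1.83% to 2.43% in KO HSC GFP-high cells and 2.33% to 3.14% in WT HSC GFP-high cells, and 1.52% to 3.89% in KO MPP GFP-low cells and 2.00% to 3.58% in WT MPP GFP-low cells. These ranges overlap between the genotypes in all 4 populations. In bulk RNA, a different number of neutrophils among the sorted cells and a different amount of their RNA per cell cannot be told apart.

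The other 2 populations of the H2B-GFP cohort each held 1 KO library far above the rest. In HSC GFP-low cells the share was 0.896%, 2.00% and 10.8% in KO libraries 1 to 3, against 1.56%, 1.62% and 1.84% in WT libraries 1 to 3. In MPP GFP-high cells it was 1.62%, 2.85% and 9.47% in KO libraries 1 to 3, against 1.80%, 2.06% and 2.39% in WT libraries 1 to 3. The third KO library is the high one in both populations, and the remaining KO libraries lie on either side of the WT ones. With ribosomal RNA left out, S100a8 was the gene with the most FPKM of all in these 2 libraries, and also in KO MPP GFP-low library 1.

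**Figure D1:**
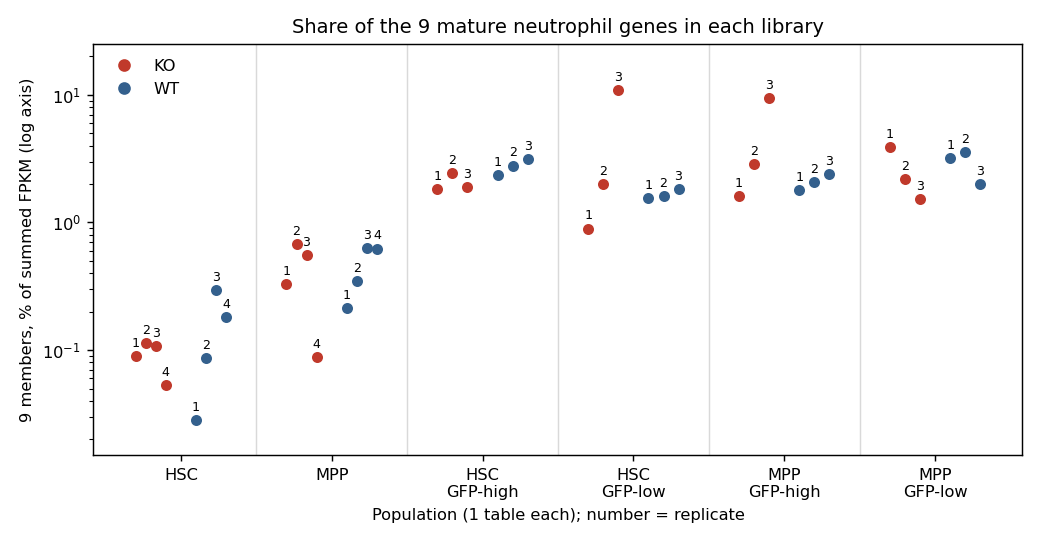
Share of the 9 genes in the summed FPKM of each library, ribosomal RNA genes left out, on a log axis, with 1 point per library, KO left of WT, and the replicate number above each point. KO library 3 stands at 10.8% in HSC GFP-low cells and at 9.47% in MPP GFP-high cells.

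A library was taken to stand apart when the mean log2(FPKM + 1) of the 9 genes was more than 1 above the median library of its table. Besides KO HSC GFP-low library 3 (3.27 above) and KO MPP GFP-high library 3 (2.44 above), this held for WT HSC library 3 (1.24 above) and KO MPP library 2 (1.01 above). KO MPP GFP-low library 1 (0.86 above) and KO MPP library 3 (0.84 above) were just outside that limit. In the downward direction KO MPP library 4 lay 1.75 and WT HSC library 1 lay 1.52 below their medians. The first cohort therefore spread widely on both sides. The H2B-GFP cohort had 2 isolated high libraries, and its others lay from 0.83 below (KO HSC GFP-low library 1) to 0.86 above their medians.

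S100a8 and S100a9, the 2 subunits of calprotectin, led the pattern in level. In HSC GFP-low cells S100a8 stood at 1108, 2234 and 13430 FPKM in KO libraries and at 1591, 1700 and 1746 FPKM in WT libraries. S100a9 stood at 578, 1445 and 7806 FPKM in KO libraries and at 1249, 1276 and 1339 FPKM in WT libraries. KO library 1 was the lowest of the 6 for both genes and KO library 3 the highest, so the 3 WT libraries lie between the KO extremes. In MPP GFP-high cells S100a8 stood at 1685, 3102 and 11256 FPKM in KO libraries and at 1813, 2110 and 2451 FPKM in WT libraries, again with WT inside the KO range. S100a9 there stood at 1206, 1609 and 6840 FPKM in KO libraries and at 1388, 1538 and 1993 FPKM in WT libraries.

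Among the specific granule genes, Ltf, which encodes the iron-binding lactoferrin, showed the widest gap in HSC GFP-low cells. It stood at 25.1, 65.8 and 686 FPKM in KO HSC GFP-low libraries and at 43.0, 53.7 and 54.6 FPKM in WT ones, which puts KO library 3 at 10.4 times the next library. Camp, the cathelicidin antimicrobial peptide, stood at 125, 459 and 2584 FPKM in KO libraries and at 351, 376 and 360 FPKM in WT libraries. Lcn2, the lipocalin that binds bacterial siderophores, and Ngp, neutrophilic granule protein, had their highest values in the same library, at 789 and 3205 FPKM. For each of these 4 genes KO library 1 was the lowest of the table. Chil3, a chitinase-like lectin that forms crystals and has the close paralog Chil4, so that its reads may be split, stood at 49.1, 61.6 and 658 FPKM in KO libraries and at 88.8, 86.2 and 111 FPKM in WT libraries. Without KO library 3 the KO values of Chil3 are thus both below all WT values, with 2 KO libraries left against 3 WT ones. How many of all genes separate in that smaller set was not counted.

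Mmp8, the neutrophil collagenase, and Retnlg, a resistin-like secreted protein, are transcribed late in neutrophil maturation. In HSC GFP-low cells Mmp8 stood at 1.34, 9.64 and 48.8 FPKM in KO libraries and at 3.72, 2.55 and 1.79 FPKM in WT libraries. Retnlg stood at 20.0, 52.5 and 329 FPKM in KO libraries and at 23.8, 19.8 and 11.1 FPKM in WT libraries. Both genes were higher in KO libraries 2 and 3 than in any WT library. In MPP GFP-high cells all KO values of both genes exceeded all WT values, with Mmp8 at 8.70, 7.74 and 35.03 FPKM in KO libraries and 4.07, 2.36 and 3.02 FPKM in WT libraries. Retnlg there stood at 53.1, 32.0 and 237 FPKM in KO libraries and at 12.4, 10.8 and 22.1 FPKM in WT libraries.

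All 9 members were at their highest in KO library 3 in both populations. Over the next library of the table they were 5.06-fold (Mmp8) to 10.4-fold (Ltf) higher in HSC GFP-low cells, and 3.40-fold (Camp) to 4.45-fold (Retnlg) higher in MPP GFP-high cells. WT HSC library 3 held 8 of the 9 maxima of its table, at 817 FPKM of S100a8 against 426 FPKM in the next library, a 1.92-fold gap. KO MPP library 2 held 7 of 9 maxima, at 2070 FPKM of S100a8 against 1946 FPKM in the next library, a 1.06-fold gap. Those 2 libraries are thus the tops of a continuous spread.

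**Figure D2:**
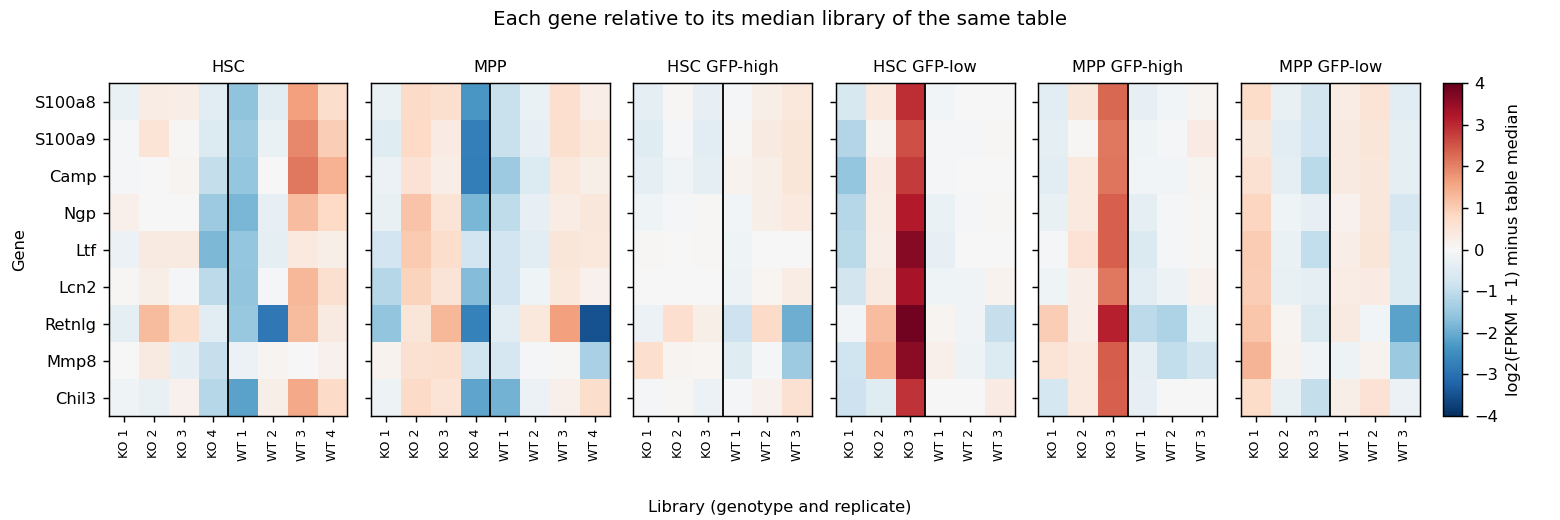
Each of the 9 genes (rows) in each of the 40 libraries (columns, KO left of WT in each table) as log2(FPKM + 1) minus that gene's median over the libraries of its table, red above and blue below. KO library 3 of HSC GFP-low and of MPP GFP-high cells is high for all 9 genes, and the first cohort varies in both genotypes.

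By S100a8, libraries of the first cohort kept the same order in both cell types. KO libraries ran 4, 1, 3, 2 from low to high in HSCs (191, 213, 314 and 316 FPKM) and again in MPPs (241, 1023, 1894 and 2070 FPKM). WT libraries ran 1, 2, 4, 3 in HSCs (84.2, 190, 426 and 817 FPKM) and again in MPPs (651, 1018, 1452 and 1946 FPKM). By the mean of the 9 genes the KO order was the same in both cell types, and in the WT libraries 2 and 4 changed places. Single members could differ, as KO libraries ran 4, 1, 2, 3 by Camp in HSCs and 4, 1, 3, 2 in MPPs. In the H2B-GFP cohort the WT libraries ran 1, 2, 3 by S100a8 in 3 of the 4 populations and 3, 1, 2 in MPP GFP-low cells, while the KO libraries ran 1, 2, 3 in HSC GFP-low and MPP GFP-high cells, 1, 3, 2 in HSC GFP-high cells and 3, 2, 1 in MPP GFP-low cells. KO library 3 was the highest KO library by S100a8 in HSC GFP-low and MPP GFP-high cells and the lowest in MPP GFP-low cells (1597 FPKM, against 4508 and 2178 FPKM in KO libraries 1 and 2). Whether equal numbers mark the same mouse is not stated in the labels.

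The members moved with one another across all 40 libraries. After centring each gene on its table, the Pearson r of a member with the mean of the other 8 was between 0.89 and 0.97 for 7 of them, and was 0.69 for Retnlg and 0.73 for Mmp8. Without the 4 libraries that stand apart these were 0.78 to 0.93, 0.47 for Retnlg and 0.47 for Mmp8. The late genes Retnlg and Mmp8 were the loosest, and they also had the fewest reads. Their medians were 201 and 113.5 reads per library, against 1749 to 13976.5 for the other members. Whether low counts bear on their r was not tested. In the first cohort Retnlg was listed at 0 in WT HSC library 2 and at 0.269 FPKM in WT MPP library 4, a library with 1452 FPKM of S100a8. Libraries of a table share their scaling, and these values describe the set with no test.

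Of 9330 other genes, those most like the mean of the members over the 40 libraries were Wfdc21 (r = 0.96), Cd177 (0.94), Hp (0.90), Ifitm6 (0.90), Fcnb (0.89), Trem3 (0.89), Ltb4r1 (0.87), Ncf1 (0.87), Clec4a2 (0.86) and Ly6g (0.83). Hp encodes haptoglobin, Cd177 a neutrophil surface glycoprotein, Fcnb a ficolin of granules, Ltb4r1 a leukotriene B4 receptor, Ncf1 a subunit of the NADPH oxidase, and Ly6g the antigen of the Gr-1 stain. Without the 4 libraries that stand apart, r was 0.93 for Wfdc21 and 0.94 for Cd177, and 0.66 for Ly6g. An r of 0.8 or more was reached by 14 genes over all 40 libraries and by 4 over the remaining 36, and the median r of all genes was 0.0062.

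The 2 high libraries of the H2B-GFP cohort also stood above the rest in the lists of further neutrophil, primary granule and erythroid genes. In KO HSC GFP-low library 3, 29 further granule and late neutrophil genes, 28 of them in the table, summed to 3531 FPKM against 568 to 806 FPKM in the other 5 libraries, with 26 of 28 at their highest there and none at 0. Lyz2, lysozyme, stood at 1996 against 383 to 500 FPKM, Wfdc21 at 393 against 16.3 to 79.2 FPKM and Ifitm6 at 251 against 10.1 to 42.8 FPKM. The 9 primary granule genes summed to 1470 FPKM against 356 to 708 FPKM, with Mpo at 427 against 49.7 to 147 FPKM. Cebpe, the C/EBP factor of the late granulocyte stages, stood at 21.1 against 0.0669 to 3.52 FPKM, and the 14 regulators of granulocyte genes as a list summed to 133 against 79.0 to 98.3 FPKM.

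In KO MPP GFP-high library 3 the further neutrophil genes summed to 2618 FPKM against 628 to 884 FPKM in the other 5 libraries, with 27 of 28 at their highest and none at 0. Primary granule genes summed to 1430 FPKM against 406 to 916 FPKM, and Cebpe stood at 15.2 against 1.71 to 4.80 FPKM. The regulators as a list, at 132 FPKM, lay inside the range of 117 to 148 FPKM of the other libraries.

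Outside the granulocyte series, erythroid genes summed to 3923 FPKM in KO HSC GFP-low library 3 against 957 to 2042 FPKM, with 9 of 10 at their highest, and to 2777 FPKM in KO MPP GFP-high library 3 against 871 to 1524 FPKM, with all 10 at their highest. Monocyte and macrophage genes summed to 133 against 31.7 to 67.4 FPKM in the first of these libraries and to 112 against 36.9 to 71.2 FPKM in the second. Most of both sums was Ly6c2, a monocyte surface antigen, at 93.8 and 81.2 FPKM. Without Ly6c2 the list stood at 39.6 against 17.4 to 29.2 FPKM in the first library, with 10 of 13 genes at their highest, and at 30.5 against 22.2 to 42.0 FPKM, inside the range, in the second. Genes of B cells and plasma cells summed to 143 against 31.3 to 63.6 FPKM and to 95.6 against 39.996 to 58.5 FPKM. Jchain, the joining chain of secreted immunoglobulins, stood at 106 against 0.0767 to 1.32 FPKM in the first library and at 47.8 against 0.452 to 1.04 FPKM in the second. Without Jchain the list lay inside the range of the other libraries, at 36.4 against 30.6 to 62.3 FPKM and at 47.8 against 39.5 to 58.0 FPKM.

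The sum over the 15 HSC and MPP genes went the other way. It was 381 FPKM in KO HSC GFP-low library 3 against 458 to 590 FPKM. In KO MPP GFP-high library 3 it was 631 FPKM against 746 to 856 FPKM, below all other libraries in both tables. Single genes differed, with 1 of the 15 at its highest in each library. Of the 3 highest genes, Kit (123 against 97.2 to 168 FPKM) and Gata2 lay inside the range and Myct1 below it in the first library. In the second, Kit (136 against 95.7 to 159 FPKM) and Cd34 lay inside and Ly6a below. Whether the members' share of FPKM, 10.8% and 9.47%, bears on these sums was not tested. The 4 remaining lists of other cells lay inside the range of the other libraries in KO HSC GFP-low library 3, while 3 of them lay above it and 1 below it in KO MPP GFP-high library 3. Megakaryocyte and platelet genes were at 508 against 303 to 660 FPKM and at 178 against 186 to 252 FPKM. T and NK cell genes, which include Nkg7 of the primary granule list, were at 88.8 against 48.7 to 92.8 FPKM and at 130 against 48.1 to 119 FPKM. Stroma and endothelium stood at 17.8 against 13.6 to 24.2 FPKM and at 22.2 against 16.5 to 21.8 FPKM, and eosinophil, basophil and mast cell genes at 72.2 against 5.51 to 183 FPKM and at 369 against 28.7 to 344 FPKM. The part of these lists in the members' levels was not tested.

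**Figure D3:**
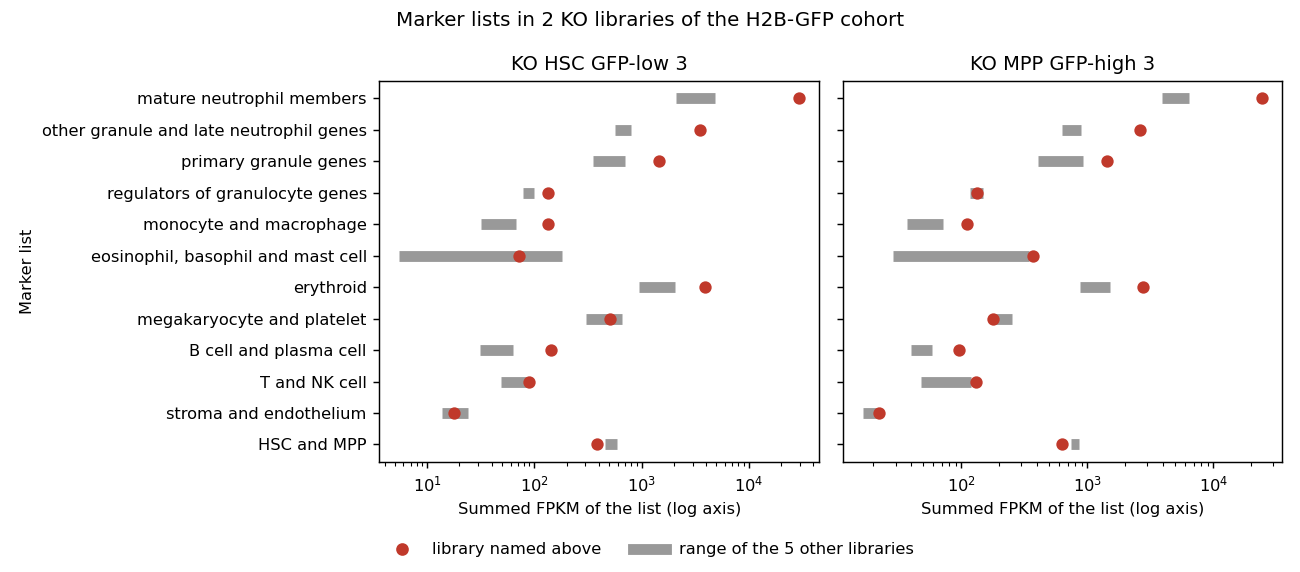
Summed FPKM of 12 marker lists (rows, log axis) in KO HSC GFP-low library 3 and KO MPP GFP-high library 3 (points) and the range over the other 5 libraries of the same table (bars). Neutrophil, primary granule and erythroid lists lie above the bars in both libraries and the HSC and MPP list lies below them. The B and plasma cell list lies above them through Jchain alone, and the monocyte list mostly through Ly6c2.

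Counting genes at 5 FPKM or more that exceeded 2 times the next library of the table, KO HSC GFP-low library 3 had 152 and KO MPP GFP-high library 3 had 92, against 0 to 24 and 1 to 10 in the other libraries of their tables. The 2 sets shared 72 genes, which is 47.4% of the first and 78.3% of the second, and all 9 members are among the shared ones. WT HSC library 3 and KO MPP library 2 had 6 and 12 such genes, against 0 to 9 and 5 to 25 in the other libraries of their tables. In WT HSC library 3 the lists of other cells lay inside the range of the other HSC libraries, at 1339 FPKM for erythroid genes against 955 to 7694 FPKM. Above that range were its further neutrophil genes, at 422.5 against 301.7 to 415.1 FPKM, and its primary granule genes, at 421.9 against 241.9 to 399.7 FPKM. In KO MPP library 2 erythroid genes summed to 10276 FPKM against 510 to 5749 FPKM and eosinophil, basophil and mast cell genes to 1591 FPKM against 10.5 to 845 FPKM. Monocyte and macrophage genes there summed to 140 FPKM against 32.8 to 109 FPKM, of which Ly6c2 made up 102 FPKM, and T and NK cell genes to 275 FPKM against 201 to 272 FPKM. Further neutrophil genes lay just above the range in that library, at 651.9 against 352.2 to 650.6 FPKM. Stroma and endothelium genes lay below it, at 10.6 against 12.7 to 14.8 FPKM. The part of all these lists in the members' levels was not tested either.

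Between the genotypes, limma's moderated test on log2(FPKM + 1), with p-values adjusted by Benjamini-Hochberg over all genes of a table, called 0 of the tested members in every population at an adjusted p under 0.05. In HSCs 8 of 9 members were tested, since Mmp8 stayed below 1 FPKM in too many libraries, and elsewhere all 9. Over all genes the same rule called 0.124% in HSCs, 0.108% in MPPs, 0.0276% in HSC GFP-high, 0% in HSC GFP-low, 0% in MPP GFP-high and 0.32% in MPP GFP-low cells. At an unadjusted p under 0.05 the counts of members were 0 in HSCs, 0 in MPPs, 4 in HSC GFP-high, 1 in HSC GFP-low, 2 in MPP GFP-high and 0 in MPP GFP-low cells, where all genes gave 10.1%, 16.6%, 10.4%, 8.57%, 7.09% and 12.3%. Nothing is read from these counts, since the members were picked from the same levels.

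In HSC GFP-low cells all 9 members had a positive log2 difference of KO minus WT, with a median of 0.94, against -0.0042 over all genes tested. Without KO library 3 only 2 of 9, Retnlg and Mmp8, were positive and the median was -0.29. S100a8 had a log2 difference of 0.94 (95% interval -0.71 to 2.58) with all libraries and of -0.09 (-0.65 to 0.47) without that library. Its KO mean is 5590.5 ± 6812 FPKM with all libraries, against 1679 ± 79.7 FPKM in WT (SD, n = 3 each), and 1671 FPKM over the 2 other KO libraries. Ltf had 1.05 (-1.09 to 3.20) with the library and -0.29 (-1.04 to 0.45) without it. Leaving out KO library 1, the lowest, gave a median of 1.82. Without KO library 3, Chil3 had a log2 difference of -0.77 (-1.13 to -0.42) and limma's adjusted p was 0.155.

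In MPP GFP-high cells all 9 members were again higher in KO, with a median log2 difference of 0.88, against 0.0043 over all genes tested. Without KO library 3 the median was 0.17 and 7 of 9 were positive, and without KO library 1 it was 1.51. S100a8 had 0.12 (95% interval -0.46 to 0.69) without KO library 3 and 0.88 (-0.40 to 2.17) with it. S100a9 had -0.22 (-0.66 to 0.22) without that library and 0.55 (-0.69 to 1.79) with it. Retnlg and Mmp8 kept a gap between the groups without KO library 3, with 2 KO libraries left against 3 WT ones. How many of all genes separate in that smaller set was not counted. Retnlg had a log2 difference of 1.46 (0.77 to 2.14) without the library and 2.29 (0.88 to 3.70) with it. Mmp8 had 1.17 (0.73 to 1.61) without it and 1.83 (0.75 to 2.90) with it, and limma's adjusted p was 0.169 without and 0.52 with the library.

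In HSCs of the first cohort 1 of the 9 members, Retnlg, was higher in KO and the median log2 difference was -0.28. Without WT library 3 the median was 0.14 with 7 of 9 positive, and without WT library 1, the lowest, it was -0.84 with 1 of 9 positive. S100a8 had -0.12 (95% interval -1.32 to 1.08) with all libraries, 0.41 (-0.54 to 1.36) without WT library 3 and -0.68 (-1.56 to 0.20) without WT library 1. In MPPs 4 of 9 members were higher in KO and the median was -0.15. It was -0.52 with 1 of 9 positive without KO library 2, and 0.54 with 9 of 9 positive without KO library 4. Camp, as an example, had -0.19 (-1.64 to 1.25) with all libraries, -0.56 (-2.05 to 0.93) without KO library 2 and 0.55 (-0.32 to 1.42) without KO library 4. The size of the set's median difference in each of these tables thus depended on single libraries at either end of the spread. Among the fits named here, its sign changed only without WT HSC library 3 and without KO MPP library 4.

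**Figure D4:**
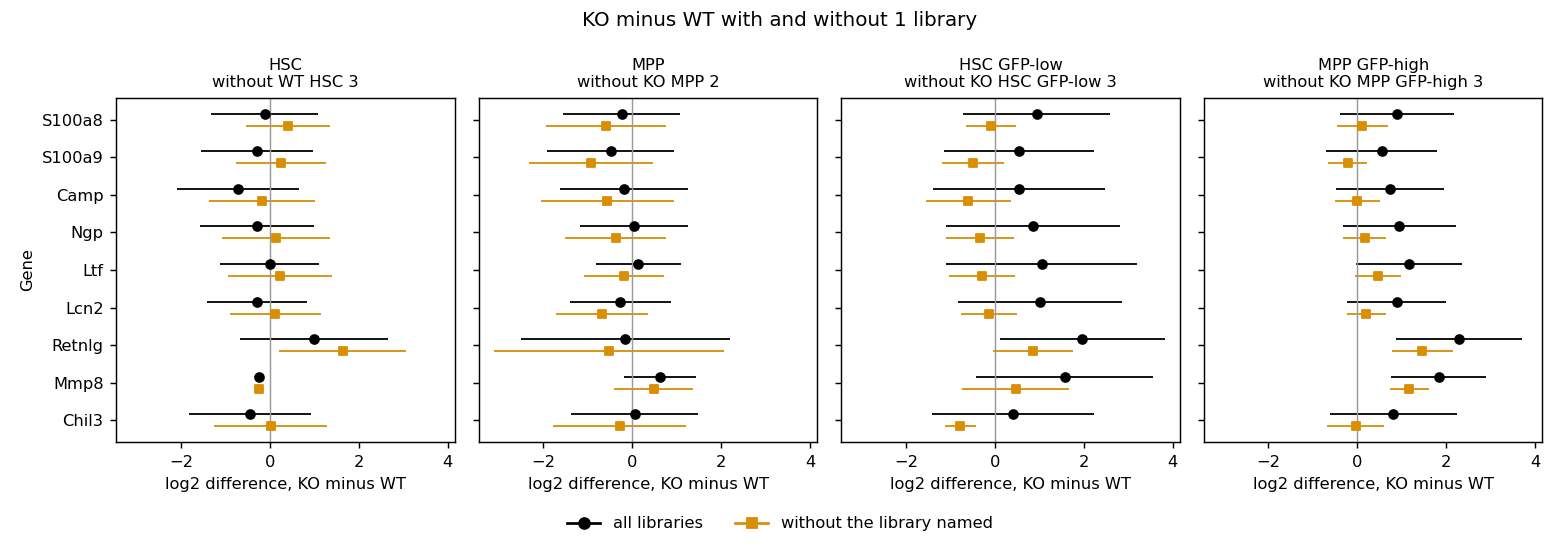
log2 difference of KO minus WT for each member with all libraries (black circles) and without the library named in the panel (orange squares), with limma's 95% intervals. Mmp8 in HSCs was below the level needed for a test and has no interval. Differences of 0.41 to 2.29 with all libraries shrink or change sign in the 2 panels on the right.

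In HSC GFP-high cells, where no library stood apart, 3 members did not overlap between the groups. S100a9 stood at 1247, 1668 and 1251 FPKM in KO libraries and at 1795, 2203 and 2400 FPKM in WT libraries. Camp stood at 409, 488 and 403 FPKM in KO libraries and at 582, 623 and 750 FPKM in WT libraries. KO lay below WT throughout for both, while Mmp8 went the other way, at 10.1, 6.59 and 6.35 FPKM in KO libraries and 3.97, 5.65 and 1.54 FPKM in WT libraries. Over all tested genes 8.61% lay wholly above and 7.47% wholly below WT in KO in this table. The log2 differences were -0.62 (95% interval -0.94 to -0.30) for S100a9, -0.58 (-0.85 to -0.31) for Camp and 0.96 (0.24 to 1.68) for Mmp8, and limma's adjusted p was 0.214, 0.195 and 0.37. Ltf differed by 0.09 (-0.12 to 0.30), at 92.0, 88.1 and 92.7 FPKM in KO libraries and 78.2, 89.6 and 88.6 FPKM in WT libraries.

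In MPP GFP-high cells Retnlg and Mmp8 were the 2 members that did not overlap, both above WT, where 6.74% of all tested genes lay wholly above. In HSCs, MPPs, HSC GFP-low and MPP GFP-low cells none of the 9 separated with all libraries, where the shares of tested genes wholly above and wholly below WT were 2.81% and 3.39%, 5.08% and 4.84%, 7.67% and 6.42%, and 9.73% and 9.33%. In MPP GFP-low cells S100a8 stood at 4508, 2178 and 1597 FPKM in KO libraries and at 3298, 3886 and 1997 FPKM in WT libraries, so KO held both the highest and the lowest value. The median log2 difference there was -0.15, and it was -0.66 without KO library 1, 0.31 without KO library 3 and -0.45 without WT library 3.

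Levels of most members rise and fall together from library to library, so the proportions between members within a library were also compared, a view chosen after the levels had been seen. In HSC GFP-high cells 22 of the 36 FPKM ratios between 2 members did not overlap between the genotypes (61.1%), where 16.1% of the ratios of all pairs of tested genes did not. The counts were 14 of 36 in HSC GFP-low cells (38.9% against 14.8% of all pairs), 21 of 36 in MPP GFP-high cells (58.3% against 13.5%) and 19 of 36 in MPP GFP-low cells (52.8% against 19.1%). In the first cohort they were 3 of 36 in HSCs (8.33% against 6.06%) and 1 of 36 in MPPs (2.78% against 9.67%). The 36 ratios share 9 genes and are not separate observations, and the 4 GFP populations may come from the same mice.

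The ratio of S100a9 to S100a8 was lower in KO. It was 0.649, 0.665 and 0.647 in KO HSC GFP-high libraries, against 0.750, 0.765 and 0.733 in WT ones. In HSC GFP-low cells it was 0.522, 0.647 and 0.581 in KO libraries, against 0.785, 0.751 and 0.767 in WT libraries, and in MPP GFP-high cells it was 0.716, 0.519 and 0.608 in KO libraries, against 0.765, 0.729 and 0.813 in WT libraries. The groups did not overlap in these 3 tables, and the KO library that stands apart lay between the other KO libraries in both tables that have one. In MPP GFP-low cells the groups overlapped, at 0.596 to 0.730 in KO and 0.714 to 0.771 in WT, as they did in the first cohort.

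Of the 36 ratios, 3 were higher in KO without overlap in all 4 GFP populations, those of Mmp8 to Camp, Ngp to S100a9 and Lcn2 to S100a9. Ratios of Camp and of Chil3 to S100a9 separated in no table, and those of Ltf and Retnlg to Camp or S100a9 in 3 of the 4 GFP populations. The ratio of Mmp8 to Camp was 0.0135 to 0.0246 in KO and 0.00206 to 0.00906 in WT in HSC GFP-high cells, and 0.0171 to 0.0230 in KO and 0.00418 to 0.00992 in WT in MPP GFP-low cells. It was 0.0124 to 0.0252 in KO and 0.00541 to 0.00920 in WT in MPP GFP-high cells. In HSC GFP-low cells the gap was narrow, at 0.0107 to 0.0210 in KO and 0.00497 to 0.0106 in WT. Ngp to S100a9 was at 0.377 to 0.417 in KO and 0.249 to 0.305 in WT in MPP GFP-low cells. That ratio also separated in MPPs of the first cohort, at 0.373 to 0.609 in KO and 0.258 to 0.330 in WT, and in HSCs the 3 separated ratios were those of Retnlg to S100a8, S100a9 and Camp, higher in KO.

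**Figure D5:**
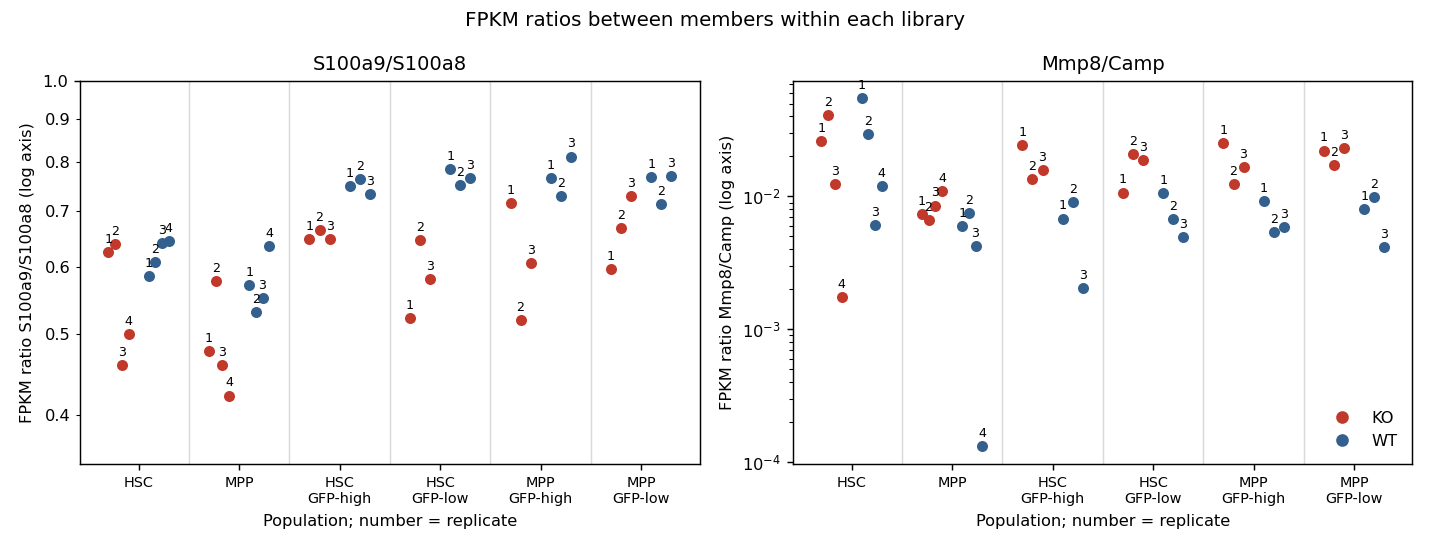
FPKM ratio of S100a9 to S100a8 (left) and of Mmp8 to Camp (right) in each library, log axes, KO left of WT, replicate numbers above the points. In HSC GFP-high cells S100a9/S100a8 is 0.647 to 0.665 in KO and 0.733 to 0.765 in WT, and Mmp8/Camp is higher in KO than in WT in all 4 GFP populations.

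The other genes of the granulocyte programme were described with the same fit, from lists that were also written with results known. Of the 29 further granule and late neutrophil genes, 13 to 21 were tested per table and limma's adjusted p called 0 in any table. At limma's unadjusted p under 0.05 there were 4 of 13 in HSCs, 1 of 17 in MPPs and 3 of 21 in HSC GFP-high cells. There were 6 of 20 in HSC GFP-low, 8 of 20 in MPP GFP-high and 1 of 19 in MPP GFP-low cells. All genes gave 10.1%, 16.6%, 10.4%, 8.57%, 7.09% and 12.3% in that order. Nothing is read from these counts, since the lists were written with results known. The median log2 difference of these further genes was 1.00 in HSC GFP-low and 0.79 in MPP GFP-high cells and between -0.02 and 0.09 in the other tables, beside the members' 0.94 and 0.88. Of the 14 regulators, 8 to 13 were tested and 0 called. At limma's unadjusted p under 0.05 there were 1 of 8, 4 of 13, 4 of 11, 1 of 10, 2 of 12 and 1 of 13, in the same order of populations. Of the 9 primary granule genes, Prtn3, the serine protease proteinase 3, was called in HSC GFP-high cells, at 294 ± 12.8 FPKM in KO and 174 ± 9.88 FPKM in WT (SD, n = 3 each, log2 difference 0.76, limma's adjusted p = 0.0383). With 1 library left out, 0 genes of that table passed in 5 of 6 fits. The other 8 primary granule genes were not called there, nor any of the 9 in the other tables. At limma's unadjusted p under 0.05 there were 4, 0, 4, 2, 5 and 0 of the 9, again in the same order. In HSC GFP-high cells the median log2 difference of the 9 was -0.45, opposite in sign to that of Prtn3. That median was 0.58 in HSCs, 0.06 in MPPs, 0.41 in HSC GFP-low, 0.75 in MPP GFP-high and -0.10 in MPP GFP-low cells.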

How the data were processed

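The members and all marker lists were chosen with earlier results of these data known. The deposited tables, 1 per population, hold FPKM per gene and library. Per the submitters' processing notes, STAR, DESeq2, HOMER and mm10 were used, with no role or version given. Libraries were made from polyA RNA with SMART-Seq2 and Nextera XT, per the labels' protocols, and strand is not stated. All 40 value columns were matched to samples and 0 belonged to none. The steps of the FPKM values allowed whole reads to be recovered (to within 0.01) for 99.99% to 100% of genes, and depths come from them.

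From the FPKM values, KO and WT were compared within each table on the log2(FPKM + 1) scale (limma 3.58.1, R 4.3.3; moderated 2-sided test, intensity trend), over genes with 1 FPKM or more in at least 4 libraries (first cohort) or 3 (H2B-GFP cohort). Benjamini-Hochberg adjustment ran over all of these, with a threshold of 0.05. The differences on this scale understate changes of low genes. The code was tested on simulated data. Shares of FPKM leave out Rn45s and Rn18s-rs5. Named genes are the members, the top genes of each marker list in the library that stands apart most (up to 3), the 10 genes most like the members, and genes in counts of 5 or fewer. Genes described through a list's text were picked by that rule. Members are placed with GENCODE and RefSeq annotation on GRCm38. Replicates are biological replicates per the series' design text, and pooling of mice is not stated. Alternatives were other pseudocounts, filters and scalings, a replicate block, library weights, no trend, and leaving out libraries.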

Additional observations from a re-analysis of the deposited data

Results flagged for a closer look

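Among the 40 sets of 4 libraries examined in the first cohort (each gene, and the mean of the members, by group), 2 had 1 library far from the others by Dixon's test, where chance gives about 1 in 20. Both are in KO HSC library 4. Camp stood there at 4.30 on the log2(FPKM + 1) scale (18.6 FPKM, against 35.7, 36.2 and 40.2 FPKM in KO HSC libraries 1 to 3), a gap of 0.85 of the group's range. Ngp stood there at 4.80 (26.8 FPKM, against 85.5, 74.5 and 74.6 FPKM), a gap of 0.88 of the range. Groups of 3 are too small for this test, so the high KO libraries of the H2B-GFP cohort are described by their values alone.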

How the results depend on the processing

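Under every alternative run, limma called 0 of the members tested in each of the 6 comparisons (in HSCs 8 of the 9 in most runs). At most 1.77% of all genes were called in any run, so a count of 0 among 9 genes says little. In HSC GFP-low cells 0 genes of the whole table were called, except 3 with library quality weights and 6 without KO library 1. In MPP GFP-high cells the count was also 0, except 1 without KO library 1. The direction of the members' median was less steady. In MPPs it was -0.15 with all libraries, 0.04 with a pseudocount of 0.1 and 0.14 with library quality weights, and in MPP GFP-low cells -0.15 and, with weights, 0.16. Leaving out 1 library at a time gave medians of -0.84 to 0.14 in HSCs, -0.52 to 0.54 in MPPs, -0.36 to -0.12 in HSC GFP-high, -0.29 to 1.82 in HSC GFP-low, 0.17 to 1.51 in MPP GFP-high and -0.66 to 0.31 in MPP GFP-low cells. In no table did every pair of equal replicate numbers deviate together with a correlation over 0.1 (the range over tables was -0.12 to 0.28), so the numbers were not taken to pair the samples. With the replicate number as a block the members' median cannot change, since each number holds 1 KO and 1 WT library in every table. It stayed at -0.28, -0.15, -0.22, 0.94, 0.88 and -0.15 in the same order, which is no sign of steadiness. With the block 0 members were called. The number of genes called over the whole table was 137 against 15 in MPPs, 10 against 17 in HSCs and 52 against 34 in MPP GFP-low cells. In HSC GFP-high cells it was 2 against 3, with 0 higher in KO, so Prtn3 was not called with the block. Mmp8 in HSCs and MPPs also moved with a pseudocount of 0.1. Its lowest values there were 0.0327 FPKM in KO HSC library 4 and 0.0445 FPKM in WT MPP library 4. On the log2 scale, values below the pseudocount depend on it most. The part of these libraries in the move was not tested. With 3 or 4 libraries per group and 2 reads of Mmp8 in the shallowest case, differences within these intervals were not detectable.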

Other observations

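Ranked by the fold over the next library of the table, the genes at the head of KO HSC GFP-low library 3 were mostly no members, and they are named here after their values were seen. Hspa1a, an inducible heat shock protein, stood at 5.52 FPKM against 0 to 0.0325 FPKM in the other 5 libraries, and Jchain came next. The stefins Stfa2 and Stfa3, cysteine protease inhibitors of a family of near-identical copies whose reads may be split, stood at 9.50 FPKM against 0 to 0.210 FPKM and at 14.6 FPKM against 0 to 1.33 FPKM. Orm1, an acute phase protein, stood at 19.9 FPKM against 0 to 2.05 FPKM. Ltf was eighth, the only member among the first 10. In KO MPP GFP-high library 3 Jchain led, and Retnlg, sixth, was the only member among the first 10. Rhag, a protein of the red cell membrane, stood there at 20.0 FPKM against 0.350 to 3.72 FPKM, and Fcgr4, an Fc receptor, at 6.86 FPKM against 0.158 to 1.53 FPKM.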
